A study of Mus musculus with 9 samples.

Results

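The expression levels of 10 integrin genes, *Itgav*, *Itgb3*, *Itgb5*, *Itga4*, *Itga5*, *Itgb1*, *Itgb2*, *Itgam*, *Itgax* and *Itgal*, were described in RAW264.7 cells. The genes were chosen by symbol as the subunits best known from osteoclasts and macrophages, with earlier results of these data known. They make up 10 of the 23282 gene rows measured, each on 1 row. RAW264.7 is a mouse macrophage cell line of the BALB/c strain, used here at passage 30, which forms osteoclasts when it is given RANKL, the ligand of the receptor RANK. The study asked how the surface proteins of the dairy bacterium *Propionibacterium freudenreichii* MJ2 (MJ2) act on this differentiation. The cells were seeded at 100000 cells/mL and treated for 4 days in 3 groups of 3 libraries. The negative control received RANKL alone (50 ng/mL), and the surface protein group received RANKL (50 ng/mL) and surface proteins extracted from MJ2 (10 μg/mL). The third group received heat-killed MJ2 (10000000 cells/mL), and whether each of its libraries also had RANKL is not said in the labels. All libraries come from a single cell line, and nothing in the labels says whether the replicates were separate cultures, so p-values measure only the spread between these libraries.

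Integrins are receptors in the cell membrane that join an α chain to a β chain, and the pairing sets which ligand is bound. The β2 chain (*Itgb2*, CD18) is restricted to leukocytes and pairs with αM (*Itgam*, CD11b), αX (*Itgax*, CD11c), αL (*Itgal*, CD11a) or αD (*Itgad*, CD11d), which bind complement fragments, fibrinogen or intercellular adhesion molecules. The β1 chain (*Itgb1*) pairs with α4 (*Itga4*), which binds VCAM-1 and fibronectin, or with α5 (*Itga5*), the classical fibronectin receptor. The αv chain (*Itgav*) pairs with β3 (*Itgb3*) to form the vitronectin receptor, the chief integrin of the mature osteoclast, which organises the sealing zone on bone through Src and Syk, while precursors carry αv with β5 (*Itgb5*).

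The libraries were read from the 3′ end of mRNA, so that a value does not grow with the length of the transcript. The deposited log2 values were turned into adjusted reads (2 raised to the value, minus 1), which totalled 5930926 to 6503682 per library. Macrophage markers were present, as the label says, with 1 exception. Of 8 such markers, *Mertk* was at or under 3 adjusted reads in all 9 libraries, and the summed list was at 15499 to 17208 adjusted reads with RANKL alone, 21714 to 22651 with heat-killed MJ2 and 17559 to 19293 with surface proteins. With surface proteins 4 of the 7 tested were higher (*Lyz2*, *Adgre1*, *Cd14* and *Fcgr1*), by a log2 fold change of 2.48 for *Lyz2*, 3.81 for *Adgre1* and 2.37 for *Cd14*, and *Csf1r* was lower (-1.47), where 10.2% of all genes were higher and 7.32% lower. With heat-killed MJ2 3 were higher, against 3.37% of all genes, and none lower. The 8 osteoclast markers summed to 17073 to 28379, 12052 to 14038 and 4958 to 7349 adjusted reads in the same order, and none of the 8 was at or under 3 in all libraries. Of the 7 tested, 5 were lower with surface proteins and 2 with heat-killed MJ2, against 7.32% and 0.897% of all genes. All 4 B cell markers, all 4 T cell markers and the 3 measured of 4 neutrophil markers stayed at or under that level throughout. Fibroblast and osteoblast markers summed to 3.58 to 86.3 and dendritic cell markers to 21.5 to 46.9 adjusted reads. In such bulk RNA, fewer cells of a type and less RNA per cell cannot be told apart, and the part of the macrophage and osteoclast markers in the results that follow was not tested.

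Promoter windows are shown for the members that had one and that passed the test described below with surface proteins, *Itgam* (higher) and *Itgax* (lower) among the β2 partners, *Itga4* (lower) of the β1 family and *Itgb5* (higher) of the αv family. Each is the RefSeq sequence (GRCm38.p6) from 250 bases before to 50 bases after the start of transcription, 5′ to 3′ on the plus strand, and capitals mark matches on either strand to an AP-1 motif (TGANTCA), a core of the PU.1 type of ETS factors (GAGGAA), an Sp1 GC box (GGGCGG) or a TATA box (TATAAA).
Itgam, chr7:128062390-128062689: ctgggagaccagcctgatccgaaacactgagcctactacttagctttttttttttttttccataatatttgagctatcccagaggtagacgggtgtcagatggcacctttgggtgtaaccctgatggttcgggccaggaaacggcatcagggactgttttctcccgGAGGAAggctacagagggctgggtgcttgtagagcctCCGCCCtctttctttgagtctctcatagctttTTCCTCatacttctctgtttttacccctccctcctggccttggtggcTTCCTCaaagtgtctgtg
Itgax, chr7:128129300-128129599: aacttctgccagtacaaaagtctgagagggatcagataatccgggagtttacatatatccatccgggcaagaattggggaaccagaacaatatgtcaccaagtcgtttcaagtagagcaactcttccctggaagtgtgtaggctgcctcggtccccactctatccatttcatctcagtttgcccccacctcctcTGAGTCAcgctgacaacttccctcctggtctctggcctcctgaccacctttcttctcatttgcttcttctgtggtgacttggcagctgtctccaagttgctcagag
Itga4, chr2:79255176-79255475: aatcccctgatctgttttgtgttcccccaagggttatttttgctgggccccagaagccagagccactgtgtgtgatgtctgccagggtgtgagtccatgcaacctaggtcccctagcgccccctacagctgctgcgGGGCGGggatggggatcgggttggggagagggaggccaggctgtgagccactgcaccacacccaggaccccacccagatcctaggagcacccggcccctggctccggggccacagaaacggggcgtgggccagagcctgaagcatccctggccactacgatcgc
Itgb5, chr16:33829415-33829714: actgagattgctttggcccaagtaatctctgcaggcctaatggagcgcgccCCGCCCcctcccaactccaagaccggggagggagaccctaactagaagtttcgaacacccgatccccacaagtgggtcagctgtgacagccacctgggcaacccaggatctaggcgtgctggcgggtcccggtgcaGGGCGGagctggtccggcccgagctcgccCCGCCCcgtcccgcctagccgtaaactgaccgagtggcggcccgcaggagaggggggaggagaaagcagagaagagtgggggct

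The *Itgam* window held GAGGAA or its reverse complement at -84, -15 and 33 and a GC box at -47, counted from the start of transcription. In the *Itgax* window the single match was an AP-1 motif at -56, in the *Itga4* window a GC box at -114, and in the *Itgb5* window 3 GC boxes at -199, -63 and -34. No TATA box was found in these windows. Over all 32817 promoter windows of the same length, 28.3% held the ETS core, 35.6% the GC box, 7.81% the AP-1 motif and 13.6% the TATA box, so these matches describe the letters and do not show binding. Windows were found for 7 of the 10 genes, and none was matched for *Itgb2*, *Itgb3* and *Itgal*.

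All 10 genes had at least 10 adjusted reads in 3 or more of the 6 libraries of each comparison and were tested with limma, with adjustment over all genes tested. To pass, a gene had to differ by 2-fold or more with an adjusted p below 0.05. Against RANKL alone, surface proteins changed 6 of the 10 genes (*Itgal*, *Itgam* and *Itgb5* higher, *Itga4*, *Itgax* and *Itgb3* lower), where 17.5% of the 10874 genes tested passed, 10.2% higher and 7.32% lower. *Itgav* also met the p threshold, which made 7 of the 10 at any fold against 29.1% of all genes. With heat-killed MJ2, 3 of the 10 passed (*Itgal* and *Itgam* higher, *Itga4* lower), where 4.26% of 10814 genes passed, 3.37% higher and 0.897% lower. The same 3 genes met the p threshold at any fold (5.88% of all genes). Because the labels do not say whether these libraries had RANKL, a lack of RANKL cannot be told apart from heat-killed MJ2 here. The same limit applies between the treatments. Without heat-killed MJ2 replicate 1, 1 of the 10 and 81 of all genes passed in place of 3 and 461, and all genes that passed numbered 155 without its replicate 2, 116 without its replicate 3 and 300 without RANKL replicate 3. The median log2 fold change of the 10 genes was 0.04 with surface proteins and 0.02 with heat-killed MJ2, and that of all genes tested was -0.0077 and -0.0042. Both comparisons use the same control libraries. *Itgal* and *Itgb3* had enough reads to be tested in part of these comparisons only through the group in which they were high. Among genes with 10 adjusted reads in every library, 4 of 8 members passed with surface proteins (15.6% of all such genes) and 2 of 9 with heat-killed MJ2 (3.7%). The 3 libraries of surface proteins and of RANKL alone did not overlap for 8 of the 10 genes (48.4% of all genes tested), and those of heat-killed MJ2 and RANKL alone did not for 5 (30.2%).

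**Figure D1:**
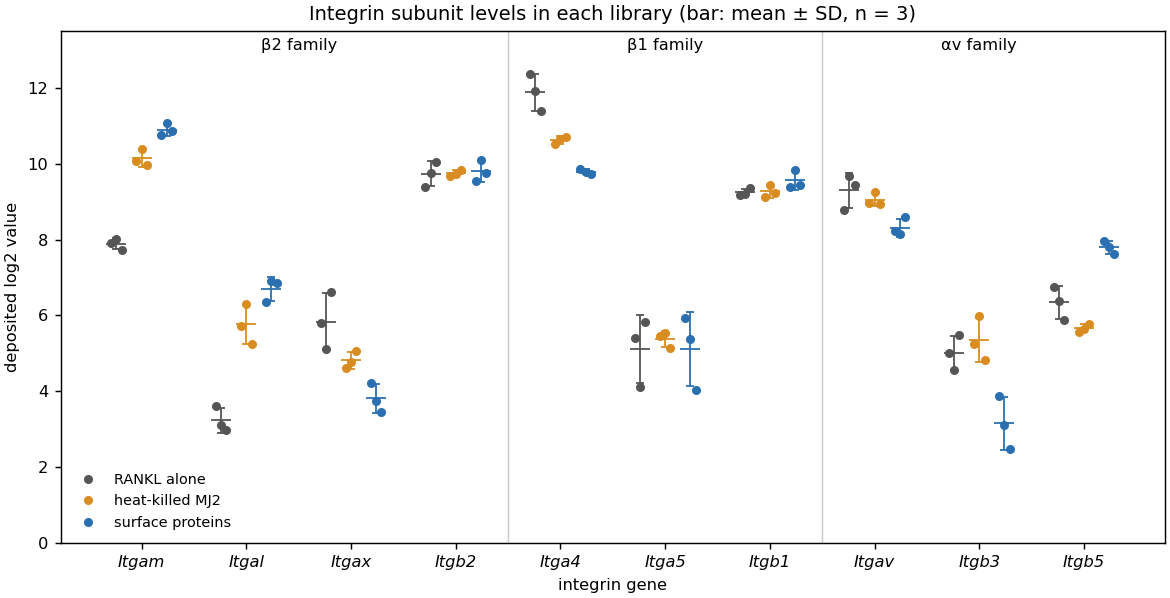
Deposited log2 value (vertical axis) of the 10 integrin genes (horizontal axis) in each of the 9 libraries, with RANKL alone, heat-killed MJ2 and surface proteins side by side. Points are libraries and bars the mean ± SD (n = 3), and *Itgam* climbs from a mean of 7.89 to 10.15 and 10.90 while *Itga4* descends from 11.89 to 10.63 and 9.79.

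*Itgam* (chromosome 7, 128062640 to 128118491, plus strand, GRCm38), the α chain of complement receptor 3 (Mac-1), showed the clearest rise by adjusted p. Replicates 1, 2 and 3 had 239, 259 and 212 adjusted reads with RANKL alone. With heat-killed MJ2 they had 1082, 1347 and 998, and with surface proteins 1743, 2152 and 1861. All libraries of heat-killed MJ2 lay above all controls, and all libraries of surface proteins above both. It rose by a log2 fold change of 3.01 with surface proteins (SE 0.16, adjusted p = 2.3e-04, 8.07-fold) and 2.26 with heat-killed MJ2 (SE 0.17, adjusted p = 0.00164, 4.78-fold), and the call held in every alternative setting run. The gene's last 1000 bases, from which 3′ reads come, overlap the predicted gene *Gm49368* on the same strand, so reads could be split or shared there.

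*Itgal* (chromosome 7, 127296260 to 127335138, plus strand), the α chain of LFA-1, was the rarest of the 10 genes in the control and rose by the largest fold of the 10 in both comparisons. Its 3 replicates had 11.2, 7.67 and 6.90 adjusted reads with RANKL alone. They had 52.2, 77.4 and 37.3 with heat-killed MJ2 and 80.3, 120.1 and 113.9 with surface proteins. No treated library reached down to the controls, while the treated groups lay next to each other with 77.4 and 80.3 as their nearest values. The rise was 3.47 on the log2 scale with surface proteins (SE 0.24, adjusted p = 5.2e-04, 11.1-fold). With heat-killed MJ2 it was 2.53 (SE 0.30, adjusted p = 0.0105, 5.77-fold), a call that was lost without heat-killed MJ2 replicate 1 (adjusted p = 0.056, log2 fold change 2.54). *Itgal* was tested because of its treated libraries, since only 1 control library reached 10 adjusted reads.

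*Itgax* (chromosome 7, 128129547 to 128150657, plus strand), the α chain of complement receptor 4, moved the other way. Replicates 1, 2 and 3 had 54.5, 33.4 and 97.0 adjusted reads with RANKL alone, 23.6, 26.1 and 32.4 with heat-killed MJ2, and 17.6, 12.4 and 10.02 with surface proteins. The controls were widely spread, with replicate 3 the highest, and still lay above every treated library. The log2 fold change with surface proteins was -2.03 (SE 0.41, adjusted p = 0.0145, 4.08-fold lower), and without surface protein replicate 2 the adjusted p was 0.0506 with the direction kept. With heat-killed MJ2 it was -1.02 (SE 0.38, adjusted p = 0.181) and did not pass. *Itgam* ends 11055 bases before *Itgax*, and *Itgax* ends 3718 bases before *Itgad*. No gene overlaps the last 1000 bases of *Itgax*. Whether reads matched more than 1 of these related genes was not tested, and how such reads were counted is not given in the sources used here.

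*Itgb2* (chromosome 10, 77530252 to 77565708, plus strand), the β chain that all of these α chains need to reach the membrane, did not differ between groups beyond its spread. It had 668.5, 872 and 1058 adjusted reads in replicates 1, 2 and 3 with RANKL alone, 818, 844 and 914 with heat-killed MJ2, and 753, 1098 and 867 with surface proteins. The 3 groups overlapped. Its log2 fold change was 0.07 with surface proteins (95% confidence interval -0.49 to 0.63, adjusted p = 0.838) and 0.01 with heat-killed MJ2 (-0.46 to 0.48, adjusted p = 0.981), and its sign turned in some alternative settings.

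The makeup of the β2 partners therefore differed between groups while the β chain was not seen to change. *Itgam*, *Itgal* and *Itgax* summed to 307 ± 8.41 adjusted reads (SD, n = 3) with RANKL alone, 1225 ± 200.4 with heat-killed MJ2 and 2037 ± 226 with surface proteins. *Itgam* took 77.3% ± 9.62 of this sum in the controls, 93.3% ± 0.35 with heat-killed MJ2 and 94.2% ± 0.46 with surface proteins. The share of *Itgax* was 19.9% ± 9.91, 2.29% ± 0.66 and 0.668% ± 0.25, and that of *Itgal* 2.80% ± 0.77, 4.44% ± 0.92 and 5.12% ± 0.70, in the same order. The sum and the shares leave out *Itgad*, also a β2 partner. With surface proteins *Itgad* had 70.6, 46.2 and 74.1 adjusted reads, more than *Itgax* in each library. Within a library, the log2 ratio of *Itgam* to *Itgb2* was -1.48, -1.75 and -2.31 with RANKL alone, 0.40, 0.68 and 0.13 with heat-killed MJ2, and 1.21, 0.97 and 1.10 with surface proteins. Every control library thus had fewer *Itgam* than *Itgb2* reads and every treated library more.

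The most abundant member in the controls was *Itga4* (chromosome 2, 79255426 to 79333123, plus strand), the α chain of VLA-4. Replicates 1, 2 and 3 had 5296, 3861 and 2677 adjusted reads with RANKL alone, 1463, 1610.3 and 1681 with heat-killed MJ2, and 933, 877 and 852 with surface proteins. The 3 groups did not overlap, and the controls were spread more widely than the treated libraries. With surface proteins the log2 fold change was -2.10 (SE 0.26, adjusted p = 0.00308, 4.28-fold lower), a call that held in every setting run. With heat-killed MJ2 it was -1.26 (SE 0.26, adjusted p = 0.0453, 2.40-fold lower), close to the threshold. That call was lost without heat-killed MJ2 replicate 1, 2 or 3 (adjusted p = 0.146, 0.120 and 0.124), without RANKL replicate 1 (0.0707) and without RANKL replicate 2 (0.11). It was also lost without a filter (0.093), at a pseudocount of 0.1 (0.0533) and with the replicate number as a block in the fit (0.108). The log2 fold changes were -1.51 to -1.02 over all settings. *Cerkl* overlaps the last 1000 bases of *Itga4* on the opposite strand.

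*Itgb1* (chromosome 8, 128685654 to 128733200, plus strand), the partner chain of α4 and α5, had 581, 592 and 653 adjusted reads with RANKL alone, 560.4, 697 and 600.3 with heat-killed MJ2, and 675, 921 and 690.2 with surface proteins. The surface protein libraries all lay above the controls, by a narrow margin. The log2 fold change of 0.31 (95% confidence interval -0.11 to 0.73, adjusted p = 0.222) did not pass, and with heat-killed MJ2 it was 0.02 (-0.33 to 0.37, adjusted p = 0.950). The log2 ratio of *Itga4* to *Itgb1* was 3.19, 2.70 and 2.03 in the controls, 1.38, 1.21 and 1.48 with heat-killed MJ2, and 0.47, -0.07 and 0.30 with surface proteins. *Itga4* thus had more reads than *Itgb1* in all controls, and the reads of both were near parity with surface proteins. This ratio leaves out *Itgb7*, which can also pair with α4. With surface proteins *Itgb7* had 775, 1129.7 and 987 adjusted reads, more than *Itgb1* in each library.

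*Itga5* (chromosome 15, 103344286 to 103366763, minus strand), the α chain of the fibronectin receptor, had 41.3, 16.3 and 55.4 adjusted reads with RANKL alone, 43.0, 45.5 and 34.3 with heat-killed MJ2, and 59.7, 40.3 and 15.5 with surface proteins. Replicate 2 of the control and replicate 3 of the surface proteins were low, and all groups overlapped. Its log2 fold change was 0.00 with surface proteins, with a wide 95% confidence interval of -1.49 to 1.49 (adjusted p = 0.998). With heat-killed MJ2 it was 0.27 (-0.79 to 1.33, adjusted p = 0.760), and the interval with surface proteins spans a change of 2-fold in either direction.

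**Figure D2:**
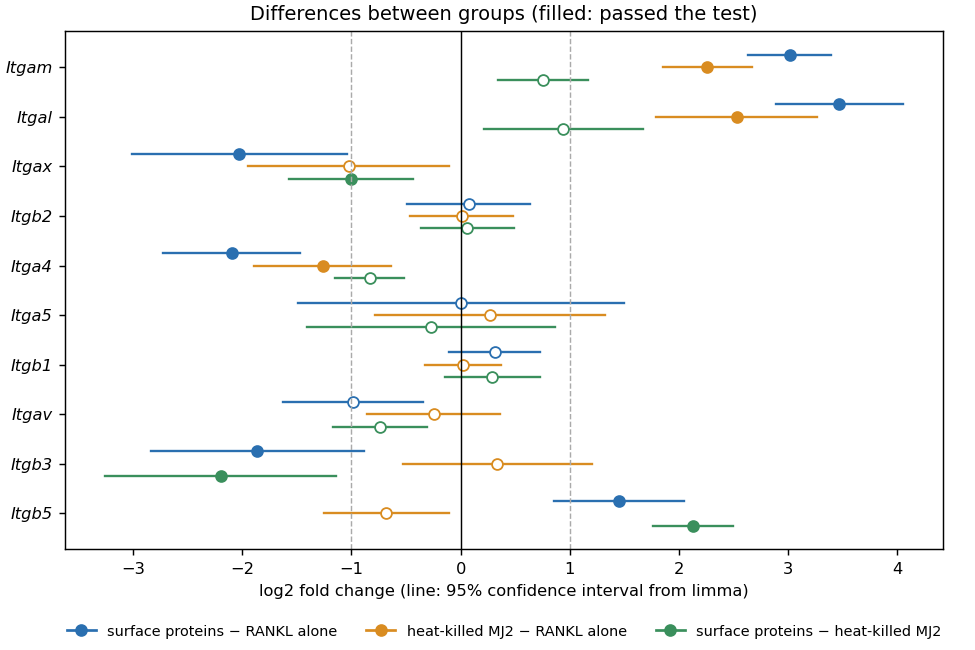
Log2 fold change (horizontal axis) of each integrin gene (vertical axis) in the comparisons of surface proteins with RANKL alone, heat-killed MJ2 with RANKL alone, and surface proteins with heat-killed MJ2. Points are the limma estimates, filled where the gene passed, and lines are 95% confidence intervals. In the comparison of surface proteins with RANKL alone, *Itgal* and *Itgam* lie farthest to the right (3.47 and 3.01) and *Itga4* farthest to the left (-2.10).

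Of the αv family, *Itgb3* (chromosome 11, 104608000 to 104670476, plus strand), the β chain of the osteoclast vitronectin receptor, was low in all groups. Replicates 1, 2 and 3 had 31.0, 22.7 and 43.5 adjusted reads with RANKL alone, 36.8, 62.0 and 27.5 with heat-killed MJ2, and 13.7, 7.62 and 4.53 with surface proteins. The surface protein libraries lay below all the others, while the other two groups overlapped. It could be tested because of those groups, since only 1 surface protein library reached 10 adjusted reads. The log2 fold change with surface proteins was -1.86 (SE 0.40, adjusted p = 0.0186, 3.64-fold lower). It was lost without surface protein replicate 2 (adjusted p = 0.0599, -1.84), RANKL replicate 1 (0.0508, -1.87) or RANKL replicate 3 (0.0544, -1.63). With heat-killed MJ2 the log2 fold change was 0.34 (95% confidence interval -0.53 to 1.21, adjusted p = 0.633).

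*Itgb5* (chromosome 16, 33829665 to 33949338, plus strand), the alternative β chain of αv, had 107, 83.0 and 58.3 adjusted reads with RANKL alone, 46.1, 49.3 and 53.9 with heat-killed MJ2, and 248, 225 and 194 with surface proteins. The surface protein libraries were the highest and the heat-killed MJ2 libraries the lowest, with no overlap among the groups. With surface proteins *Itgb5* rose by a log2 fold change of 1.45 (SE 0.25, adjusted p = 0.00856, 2.73-fold), a call that held in every setting run. With heat-killed MJ2 the log2 fold change was -0.68 (95% confidence interval -1.25 to -0.11, adjusted p = 0.157), which did not pass.

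*Itgav* (chromosome 2, 83724397 to 83806916, plus strand), the α chain shared by β3 and β5, had 443, 813 and 692 adjusted reads with RANKL alone, 501, 610.4 and 488 with heat-killed MJ2, and 297, 282 and 383 with surface proteins. Every surface protein library was below every control, and replicate 1 was the lowest control. The log2 fold change of -0.98 (SE 0.26, adjusted p = 0.0361) met the p threshold and fell just short of the fold threshold (1.98-fold). It passed without RANKL replicate 1 (-1.24, adjusted p = 0.0166), after quantile normalization (-1.03) and after scaling to equal totals (-1.04). It missed the p threshold without RANKL replicate 2 or 3, without surface protein replicate 1, 2 or 3 (adjusted p up to 0.108 over these) and without a filter (0.0708). The same was so with the replicate number as a block in the fit (0.0526). With heat-killed MJ2 it was -0.25 (SE 0.25, adjusted p = 0.617).

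The proportions of the β chains that can join αv were different in the surface protein libraries. The log2 ratio of *Itgb3* to *Itgb5* was -1.75, -1.83 and -0.41 with RANKL alone, -0.32, 0.33 and -0.95 with heat-killed MJ2, and -4.08, -4.71 and -5.14 with surface proteins. The surface protein libraries stood below all the others, with a mean difference of -3.31 from RANKL alone and of -4.33 from heat-killed MJ2 (exact two-sided permutation test, p = 0.1 for each). The ratio of *Itgb5* to *Itgav* was higher with surface proteins by 2.43 and 2.87 on the log2 scale in the same comparisons (exact p = 0.1 for each). Against *Itgav*, *Itgb3* differed from RANKL alone by -0.88 with overlapping groups (exact p = 0.3). Of the summed reads of the 4 β chains among the 10 genes, which leave out *Itgb7*, *Itgb5* made up 5.40% ± 2.25, 3.17% ± 0.20 and 11.9% ± 2.45 and *Itgb3* 2.03% ± 0.51, 2.67% ± 1.02 and 0.469% ± 0.30 with RANKL alone, heat-killed MJ2 and surface proteins (SD, n = 3).

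**Figure D3:**
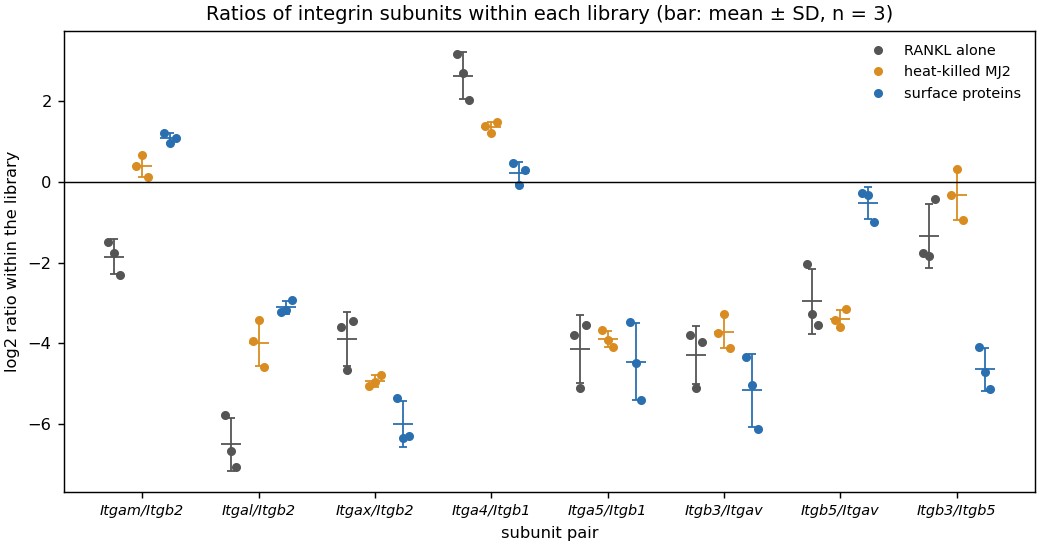
Log2 ratio of subunits within the same library (vertical axis) for 8 subunit pairs (horizontal axis), by group. Points are libraries and bars the mean ± SD (n = 3), and the surface protein libraries stand alone at the bottom for *Itgb3*/*Itgb5* (-4.08 to -5.14) and at the top for *Itgb5*/*Itgav* (-0.26 to -0.98).

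In all, 10 ratios were tested in 3 comparisons. With 3 libraries against 3 the exact test cannot give a p below 0.1, which 20 of the 30 tests gave, and the smallest p after Benjamini-Hochberg adjustment was 0.15, so none could pass. The groups did not overlap for 7 ratios between surface proteins and RANKL alone, for 5 between heat-killed MJ2 and RANKL alone, and for 8 between surface proteins and heat-killed MJ2. The ratio of *Itgam* to *Itgax* showed the widest difference, 5.04 higher on the log2 scale with surface proteins and 3.28 higher with heat-killed MJ2 than with RANKL alone.

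Compared directly, the treatments stood farthest apart, among the 10 genes, for the β chains of αv. Between surface proteins and heat-killed MJ2, 3 of the 10 genes passed, *Itgb5* higher and *Itgb3* and *Itgax* lower with surface proteins, where 10.1% of 10916 genes passed (5.08% higher, 4.97% lower). Among genes with 10 adjusted reads in every library, which leaves out *Itgb3*, 2 of 9 members passed (9.93% of all such genes). Of the 10 genes 1 passed without surface protein replicate 2 or 3 or heat-killed MJ2 replicate 1 or 3, and 591, 672, 362 and 415 of all genes did in that order, in place of 1098. The groups did not overlap for 7 of the 10 genes (42.3% of all genes tested), and the median log2 difference was -0.10 for the 10 genes and 0.03 for all. *Itgb5* was higher by 2.13 on the log2 scale (SE 0.15, adjusted p = 0.00364, 4.38-fold), which held in every setting run. *Itgb3* was at -2.20 (SE 0.44, adjusted p = 0.0238, 4.59-fold lower). Its call was lost without surface protein replicate 2 or 3 (adjusted p = 0.0701 and 0.0552) and without heat-killed MJ2 replicate 1 or 3 (0.0742 and 0.0513), as well as without a filter (0.0575). *Itgax*, at -1.004 (SE 0.24, adjusted p = 0.0350, 2.01-fold lower), sat on the fold threshold. It lost its call in 10 of 17 settings, among them without surface protein replicate 2 or 3 (adjusted p = 0.0984 and 0.0837) and without heat-killed MJ2 replicate 1, 2 or 3 (0.0812, 0.0634 and 0.107). With the replicate number as a block in the fit the call was lost too (adjusted p = 0.0854).

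Another 3 members met the p threshold of the direct comparison with a fold under 2, which made 6 of the 10 at any fold against 17.9% of all genes. *Itga4* was at -0.83 (SE 0.13, adjusted p = 0.0140), *Itgav* at -0.74 (SE 0.18, adjusted p = 0.0383) and *Itgam* at 0.75 (SE 0.17, adjusted p = 0.0325) on the log2 scale. None of these held throughout: the adjusted p of *Itga4* rose to 0.0504 and 0.0548 without heat-killed MJ2 replicate 1 and 3. That of *Itgav* was above 0.05 without heat-killed MJ2 replicate 1, 2 or 3 or surface protein replicate 1 or 2 (up to 0.107), without a filter (0.0637), over all 9 libraries (0.0626) and with the replicate number as a block (0.0854). That of *Itgam* was above it without surface protein replicate 1, 2 or 3 or heat-killed MJ2 replicate 1 or 3 (up to 0.106) and without a filter (0.0549). *Itgal*, at 0.94 (SE 0.30, adjusted p = 0.0788), passed without heat-killed MJ2 replicate 2 (1.21, adjusted p = 0.0366). No difference was detected for *Itgb1* (0.29, adjusted p = 0.296), *Itga5* (-0.27, adjusted p = 0.718) or *Itgb2* (0.06, adjusted p = 0.833).

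The order of the levels within a group also shifted. With RANKL alone *Itga4* stood above all others, followed by *Itgb2*, *Itgav* and *Itgb1*, whose neighbours in the order overlapped, then *Itgam*, then *Itgb5*, *Itgax*, *Itga5* and *Itgb3* with overlapping neighbours, and *Itgal* last. With heat-killed MJ2 the order was *Itga4*, *Itgam* and *Itgb2*, each apart from the next, then *Itgb1* and *Itgav*, then *Itgal* and *Itgb5*, and *Itga5*, *Itgb3* and *Itgax* at the end, with overlap inside each of these sets. With surface proteins *Itgam* led, followed by *Itgb2*, *Itga4* and *Itgb1* with overlapping neighbours, then *Itgav*, *Itgb5* and *Itgal*, and *Itga5*, *Itgax* and *Itgb3* at the end. Of the summed reads of the 10 genes, *Itga4* made up 59.3% ± 11.3, 32.1% ± 2.30 and 17.2% ± 2.04, and *Itgam* 3.66% ± 0.40, 23.0% ± 2.32 and 37.0% ± 0.73 (SD, n = 3), with RANKL alone, heat-killed MJ2 and surface proteins. The sum itself was 6528 ± 959, 4954 ± 379 and 5182 ± 486 adjusted reads.

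Of the other 16 integrin subunits, few had enough reads to be tested. *Itga1*, *Itga11*, *Itgb6* and *Itgb8* were at or under 3 adjusted reads in all 9 libraries, and 4 genes could be tested between surface proteins and RANKL alone. All 4 were higher in the surface protein libraries (median log2 fold change 3.37), where 10.2% of all genes were, but *Itga6*, *Itga7* and *Itgad* had enough reads to be tested only because of the surface protein libraries, so the count is a description. *Itgad*, the αD chain encoded next to *Itgax*, had 0, 0.087 and 0 adjusted reads with RANKL alone, 0.026, 7.70 and 3.90 with heat-killed MJ2, and 70.6, 46.2 and 74.1 with surface proteins. Relative to RANKL alone, the surface protein libraries were at least 21.2-fold higher, set against a floor of 3 reads per control library. All surface protein libraries were thus above all others for *Itgad*, while for its neighbour *Itgax* they were below all others.

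*Itgb7*, which can pair with α4 in place of β1, had 181, 313 and 304 adjusted reads with RANKL alone, 174, 317 and 167 with heat-killed MJ2, and 775, 1129.7 and 987 with surface proteins. Only the surface protein libraries stood apart, and the log2 fold change was 1.88 (SE 0.27, adjusted p = 0.00488) there against -0.30 (adjusted p = 0.647) with heat-killed MJ2, with a direct difference of 2.18 between the treatments (adjusted p = 0.0107). *Itga7*, a laminin-binding α chain, had 7.89 to 26.0 adjusted reads with RANKL alone, 16.6 to 60.9 with heat-killed MJ2 and 141 to 255 with surface proteins. *Itga6*, another laminin-binding chain, had 3.35 to 23.7, 8.66 to 27.6 and 67.5 to 98.3 in the same order, and for both the surface protein libraries were above all others. With heat-killed MJ2 the subunits tested were *Itgb7*, *Itga7*, *Itga6* and *Itga10*, and none passed, where 4.26% of all genes did, with log2 fold changes of 1.12 for *Itga7* (adjusted p = 0.308), 1.11 for *Itga6* (adjusted p = 0.424) and 1.72 for *Itga10* (adjusted p = 0.239), which is named here after its value was seen.

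**Figure D4:**
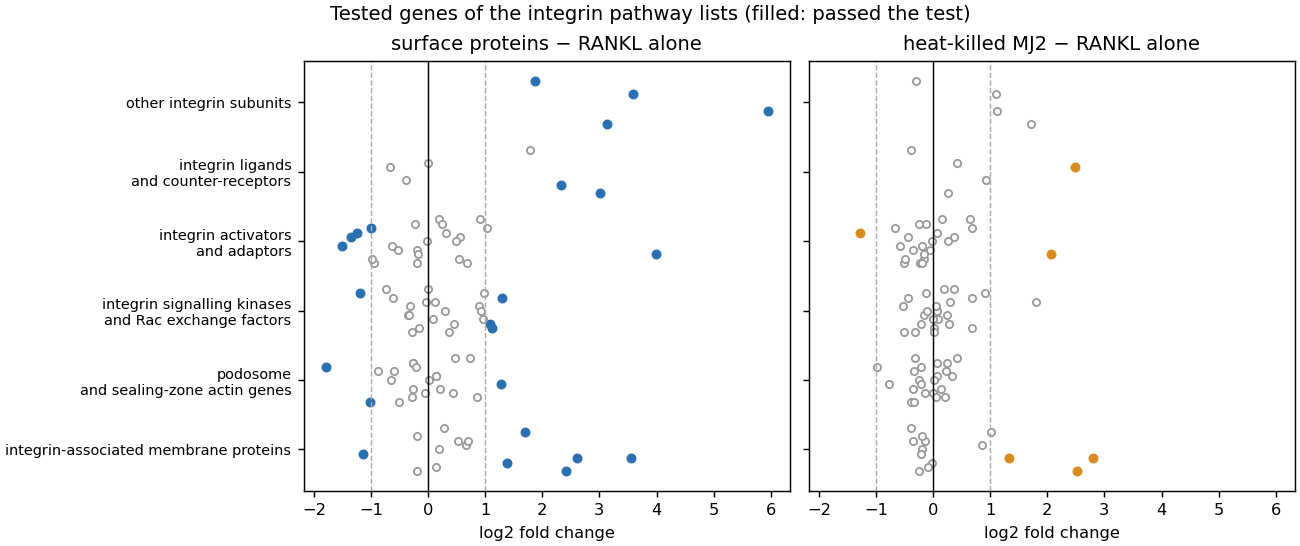
Log2 fold change (horizontal axis) of each tested gene of 6 lists of integrin pathway genes (vertical axis), with surface proteins (left) and heat-killed MJ2 (right) against RANKL alone; filled points passed and dashed lines mark the 2-fold limits. With surface proteins all 4 tested subunits lie right of the limit and 4 activators and adaptors lie left of it; the value drawn for *Itgad* is a fitted value against controls near 0 and is no measured fold.

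Among 24 ligands and counter-receptors, 6 could be tested and 2 were called higher with surface proteins (median log2 fold change 0.89), against 10.2% of all genes, and 1 of 5 with heat-killed MJ2 (median 0.42), against 3.37%. *Spp1*, which encodes osteopontin, a bone matrix ligand of αvβ3, had 2330 to 4027 adjusted reads with RANKL alone and at least 13078 in every treated library. Its log2 fold change was 2.32 with surface proteins (SE 0.30, adjusted p = 0.00338) and 2.48 with heat-killed MJ2 (SE 0.27, adjusted p = 0.00726), with no detectable difference between the treatments (-0.16, adjusted p = 0.698). *C3*, the source of the complement fragments that αMβ2 and αXβ2 bind, had 0 to 7.62 adjusted reads with RANKL alone and 24.5 to 30.5 with surface proteins. It is the other of the 2 genes counted, but it had enough reads to be tested only through the surface protein libraries, and its call was lost without RANKL replicate 1 (adjusted p = 0.0566), without a filter (0.0707) and at a pseudocount of 0.1 (0.0983).

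Inside the cell, integrins are switched on by talin, kindlin and Rap1 and tied to actin by vinculin and paxillin. Of 28 activators and adaptors, 23 were tested, with 1 higher and 4 lower with surface proteins (median log2 fold change -0.18) and 1 higher and 1 lower with heat-killed MJ2 (median -0.15). Set against the 17.5% and 4.26% of all genes that passed, these counts do not mark the list out. *Fyb*, an adaptor that links immune receptors to integrin activation, rose by 3.98 with surface proteins (SE 0.15, adjusted p = 6.5e-05) and by 2.07 with heat-killed MJ2 (SE 0.18, adjusted p = 0.0031). *Vcl*, vinculin, fell by 1.51 with surface proteins (SE 0.20, adjusted p = 0.00366), *Rasgrp3*, an exchange factor for Rap and Ras, by 1.35 (SE 0.26, adjusted p = 0.0131) and *Bcar1*, the Src substrate p130Cas, by 1.25 (SE 0.27, adjusted p = 0.0182). With heat-killed MJ2 *Bcar1* fell by 1.28 (SE 0.22, adjusted p = 0.0291), and *Vcl* was at -0.58 (adjusted p = 0.112). The *Bcar1* calls were weak: with surface proteins the call was lost without surface protein replicate 3 or RANKL replicate 2 or 3 (adjusted p up to 0.0565), and with heat-killed MJ2 when any 1 of its 3 libraries or RANKL replicate 2 or 3 was left out (up to 0.103) and without a filter (0.0626). The heat-killed MJ2 call was also lost with the replicate number as a block in the fit (0.0827).

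Of 24 signalling kinases and Rac exchange factors, 22 were tested with surface proteins, 3 higher and 1 lower (median 0.10), a count near the 17.5% of all genes. With heat-killed MJ2 23 were tested and none passed, where 4.26% of all genes did. *Src*, the kinase that αvβ3 needs to form the osteoclast sealing zone, had 256, 456 and 433 adjusted reads with RANKL alone, 298, 369 and 364 with heat-killed MJ2, and 163, 134 and 191 with surface proteins. It fell by 1.19 with surface proteins (SE 0.27, adjusted p = 0.0211) and was at -0.11 with heat-killed MJ2 (adjusted p = 0.833), and the direct difference of -1.08 between the treatments passed (SE 0.18, adjusted p = 0.0167). The call against RANKL alone was lost without surface protein replicate 1 or 2 or RANKL replicate 2 or 3 (adjusted p up to 0.0699), and the direct call without surface protein replicate 2 (-0.95, short of the fold threshold) or heat-killed MJ2 replicate 3 (adjusted p = 0.0602). The myeloid Src family kinases *Lyn* (1.12, SE 0.15, adjusted p = 0.00363) and *Fgr* (1.08, SE 0.29, adjusted p = 0.0349) and the Rac exchange factor *Vav1* (1.29, SE 0.17, adjusted p = 0.00395) rose with surface proteins. The call of *Fgr* was lost when any 1 library was left out (adjusted p up to 0.0909), without a filter (0.0713) and with the replicate number as a block (0.0913).

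Podosomes are the actin-rich contacts from which the sealing zone is built. Of 23 podosome and sealing-zone genes, 21 were tested with surface proteins, 1 higher and 2 lower (median -0.21), and 22 with heat-killed MJ2, none of which passed, where 17.5% and 4.26% of all genes did. *Gsn*, the actin-severing protein gelsolin, fell by 1.79 (SE 0.25, adjusted p = 0.00435) and *Actn1*, α-actinin, by 1.02 (SE 0.20, adjusted p = 0.0141) with surface proteins, while *Lpxn*, the paxillin-like leupaxin, rose by 1.28 (SE 0.26, adjusted p = 0.0151). Without surface protein replicate 2 *Lpxn* had an adjusted p of 0.0536, and without RANKL replicate 3 *Actn1* was at -0.85, short of the fold threshold. With heat-killed MJ2 *Gsn* was at -0.99 (adjusted p = 0.0455), just under the fold threshold.

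All 14 integrin-associated membrane proteins were tested, with 5 higher and 1 lower with surface proteins (median 0.59) and 3 higher with heat-killed MJ2 (median -0.11), where 17.5% and 4.26% of all genes passed. *Cd36*, a scavenger receptor that works beside integrins, rose by 3.56 with surface proteins (SE 0.26, adjusted p = 6.4e-04) and 2.79 with heat-killed MJ2 (adjusted p = 0.00251). *Slc3a2*, the CD98 heavy chain that binds β chains, rose by 2.61 (SE 0.24, adjusted p = 0.00123) and 1.33 (SE 0.28, adjusted p = 0.047), and *Plaur*, the urokinase receptor that associates with αMβ2, by 2.41 (SE 0.28, adjusted p = 0.00261) and 2.52 (SE 0.30, adjusted p = 0.00959). The call of *Slc3a2* with heat-killed MJ2 was lost when any 1 of its 3 libraries or RANKL replicate 1 or 3 was left out (adjusted p up to 0.129), without a filter (0.0974) and at a pseudocount of 0.1 (0.0556). That of *Plaur* was lost without heat-killed MJ2 replicate 1 (adjusted p = 0.0537) and with the replicate number as a block in the fit (0.0519). The tetraspanin *Cd53* rose by 1.70 with surface proteins (SE 0.29, adjusted p = 0.00816) and was at 1.02 with heat-killed MJ2 (adjusted p = 0.0856). None of 10 reference genes such as *Gapdh* and *Actb* passed in any comparison, with medians of 0.09 and 0.10 against RANKL alone. With surface proteins 3 of the 10 met the p threshold at any fold, *Tbp* (0.76, adjusted p = 0.0187), *B2m* (0.76, adjusted p = 0.0174) and *Sdha* (-0.71, adjusted p = 0.0374), where 29.1% of all genes did.

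The genes whose pattern over the 9 libraries was most like that of *Itgam*, *Itgal* and *Itga4* were sought among 8206 genes, by the root mean square difference of log2 values after centring each gene on its mean. Nearest to *Itgam* were *Fth1* (0.170), *Oas1g* (0.187) and *Ctsl* (0.192), where *Fth1* encodes the ferritin heavy chain and *Ctsl* the protease cathepsin L. *Atp8b4* (0.203), *Gdpd1* (0.270) and *Oas1g* (0.272) were nearest to *Itgal*. For *Itga4* they were *Slc6a12* (0.197), *Slc5a3* (0.259) and *1700025G04Rik* (0.268), where *Slc6a12* and *Slc5a3* encode carriers of the osmolytes betaine and myo-inositol. All points share the same 9 libraries, and the measure describes likeness of level only.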

How the data were processed

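RNA from 9 libraries of RAW264.7 cells, 3 per group, was sequenced by the authors as single-end 3′ QuantSeq reads; the submitters' processing notes name Bowtie2, bedtools and mm10 without versions or roles. The methods state quantile normalization and calls at a p-value and fold change in a spreadsheet tool. The authors deposited 1 log2 value for each of 23282 gene rows per library. Which scaling they carry was not settled, since values at the same rank differ by up to 1.60 between libraries. Annotation and counting rules are not given in the sources used here.

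Adjusted reads are 2 raised to the deposited value, minus 1; at low values they step in units of 0.931 to 1.106, close to single reads, within 0.25 of a step. Because the values are log2 and not counts, limma 3.58.1 (R 4.3.3) was run on the 6 libraries of each comparison, for genes that reached 10 adjusted reads in 3 or more libraries, with Benjamini-Hochberg adjustment over all genes. The code was tested on simulated data. Subunit ratios were tested by exact two-sided permutation (scipy 1.17.1). No pair of libraries was identical, and the chi-square per degree of freedom within groups was 7.39 to 21.5. A gene without a read can be present at up to 3 reads; this floor covers counting error only. Gene positions are from GENCODE on GRCm38, the build also called mm10. Groups came from the sample titles. The members and lists were chosen with earlier results of these data known. All 10 members are named; from each pathway list at most 4 that passed against RANKL alone are named, by size of change with surface proteins, and likeness is given for the members that passed in both comparisons with RANKL alone. Alternatives were other filters, pseudocounts, scalings, thresholds, a replicate block, all 9 libraries in the fit, limma's trend and robust options, and each library left out.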

Additional observations from a re-analysis of the deposited data

How the results depend on the processing

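Of 506 log2 fold changes of the 10 genes under alternative settings, 454 kept their direction and their side of the thresholds, 28 no longer passed, 9 newly passed and 15 changed sign. All sign changes were in *Itga5*, *Itgb1* and *Itgb2*, none of which passed. *Itga5* with surface proteins against RANKL alone was -0.12 after quantile normalization and -0.048 after equal totals, and *Itgb2* between the treatments was -0.020 after equal totals. Leaving out 1 library at a time gave ranges of -0.50 to 0.54 for *Itga5* and -0.10 to 0.23 for *Itgb2* with surface proteins, -0.23 to 0.62 for *Itga5*, -0.16 to 0.17 for *Itgb2* and -0.068 to 0.090 for *Itgb1* with heat-killed MJ2, and -0.67 to 0.27 for *Itga5* and -0.086 to 0.19 for *Itgb2* between the treatments. Of 270 ratio values 3 changed sign, with ranges of -0.79 to 0.16 and -0.23 to 0.55 for *Itga5*/*Itgb1* with surface proteins and heat-killed MJ2, and -0.73 to 0.020 for *Itgb5*/*Itgav* with heat-killed MJ2.

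The count of the 10 genes that passed was 4 to 6 with surface proteins, 1 to 3 with heat-killed MJ2 and 1 to 3 between the treatments when 1 library was left out, lowest without surface protein replicate 2, without heat-killed MJ2 replicate 1, and without surface protein replicate 2 or 3 or heat-killed MJ2 replicate 1 or 3; between the treatments it was 1 without a filter and 6 at any fold. Over all genes, 1902, 461 and 1098 passed in these comparisons. With any fold the counts were 3163 with surface proteins and 1949 between the treatments. For heat-killed MJ2 the count was 267 without a filter, 289 with the replicate block and 799 at an unadjusted p, and leaving out a library gave 1357 to 1822, 81 to 347 and 362 to 1176 in the order above, lowest without surface protein replicate 2, heat-killed MJ2 replicate 1 and heat-killed MJ2 replicate 1. The cause was not tested beyond the smaller number of libraries. Replicates with the same number correlated at 0.018 to 0.106 in their deviations from the group means. Those with different numbers correlated at -0.0755 to 0.0311, and 9 of 9 libraries correlated best with their own number. What the numbers stand for is not said in the labels and was not tested. The main fit did not use them, so the replicate block is given beside it. With the replicate block, 6, 2 and 2 of the 10 genes passed, and 1813, 289 and 980 of all genes did. Among the 10 genes the calls lost were *Itga4* with heat-killed MJ2 (adjusted p = 0.108) and *Itgax* between the treatments (adjusted p = 0.0854). *Itgav* no longer met the p threshold under the block with surface proteins (0.0526) or between the treatments (0.0854). Among the named pathway genes the block ended the calls of *Bcar1* (0.0827) and *Plaur* (0.0519) with heat-killed MJ2, of *Fgr* with surface proteins (0.0913) and of *C3* between the treatments (0.0721), and *Itga7* newly passed with heat-killed MJ2 (0.044). The members with the fewest reads were *Itgb3*, *Itgal*, *Itgax* and *Itga5*; whether depth limits them was not tested.

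The pathway genes were named because they passed against RANKL alone, and 21, 6 and 10 passed with surface proteins, with heat-killed MJ2 and between the treatments. Of these, 15, 3 and 3 passed in every setting in which they were tested. With surface proteins such settings numbered 13 for *Itgad*, 16 for *Itga6* and *Itga7*, and 17 for the others of the 15. Sign changes were seen only where the gene had not passed. Between the treatments *Bcar1* was -0.057 after equal totals and -0.19 to 0.17 with 1 library left out, *Spp1* -0.39 to 0.016, *Fgr* -0.15 to 0.58 and *Plaur* -0.25 to 0.043. With heat-killed MJ2 *Src* was -0.38 to 0.038 and *Lpxn* -0.45 to 0.0087.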
